A study of Mus musculus with 4 samples.

Results

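Expression of 10 named genes that move cholesterol out of brain cells, carry it between cells, esterify it or turn it into oxysterols was followed in the ventral midbrain of mice without the nuclear receptor REV-ERBα. The genes were listed by name, with earlier results on the same arrays known, and each was read from the probe set chosen by its highest mean over all 4 arrays. Of the 10, 8 had a probe set annotated to that symbol alone (Lcat, Apoe, Apod, Abca1, Abcg1, Cyp46a1, Ch25h and Nr1h3), among 19938 genes with such a probe set. Each of the 8 had 1 such probe set, so the choice by level left nothing to decide. The expression of Soat1 and Nr1h2 was not analysed here. A filter on dim genes, set at an intensity of 167 (the 40th percentile of all probe sets), kept 7 of the 8 and 13587 genes in all, and Ch25h lay below it.

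The WT group was 2 arrays from wild-type mice and the RKO group was 2 arrays from Rev-erba knock-out mice, all males of 10 to 15 weeks on a C57BL/6J background. All had been entrained for more than 10 days to a cycle with 12 h of light and were killed after 2 days in constant darkness. The clock hour of collection, the number of mice behind each array and the part of the gene that was deleted are not stated by the labels. The p-values measure the spread between these arrays, which the labels call biological replicates. The values are normalized intensities on a linear scale, and differences are RKO minus WT on the log2 scale. Standard errors (SE), 95% intervals and p-values come from limma, a linear model with a variance shared in part across all genes, and p-values were adjusted over the 13587 tested genes by the Benjamini-Hochberg method.

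Neurons of the adult brain depend on glia for part of their cholesterol. Astrocytes load it onto particles of apolipoprotein E through ABC transporters, the enzyme LCAT esterifies it on the particle, and surplus cholesterol leaves the brain after neurons hydroxylate it. The liver X receptors (LXR) sense oxysterols and switch on transporter and carrier genes. REV-ERBα is a repressor of the circadian clock that also acts on lipid genes in liver.

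The WT arrays gave 2897 and 3099 for Nr1d1, which encodes REV-ERBα, and the RKO arrays gave 1259 and 1229.7 (difference -1.27, SE 0.0589 in limma). Since the deleted part is not known here, residual signal in RKO says nothing about the label. All 10 listed dopamine neuron markers of the ventral midbrain lay above the filter. Pairs of arrays had Pearson's r from 0.99343 (the WT arrays) to 0.995641 (the RKO arrays) over all probe sets, so the WT arrays were no closer to each other than to RKO arrays. RKO replicate 1 had a median of 539.8 over the tested genes, against 558.6 to 558.7 on the other arrays. In limma 218 genes changed, 1.6% of those tested, and 131 of them (0.964%) were lower in RKO.

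Lcat was the member that changed. It encodes lecithin-cholesterol acyltransferase, which is secreted by astrocytes in the brain and esterifies the cholesterol of lipoprotein particles. WT replicates 1 and 2 read 1637 and 1685, and RKO replicates 1 and 2 read 1027 and 1022. The groups did not overlap, and the gap between them was far wider than the gap within either. Lcat fell by 0.70 on the log2 scale (SE 0.0553, 95% interval -0.82 to -0.58, adjusted p = 8.33e-05 in limma), which is 38.3% less signal in RKO. This was the 9th lowest difference among the 13587 tested genes, and as the fall was known when the members were listed, the rank is a description. The fall was -0.68 to -0.72 when each array was left out in turn, and it kept an adjusted p under 0.05 each time (2.32e-05 to 0.00551). Those fits set 1 array against 2, so the lone array was assumed to vary like the other group.

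**Figure D1:**
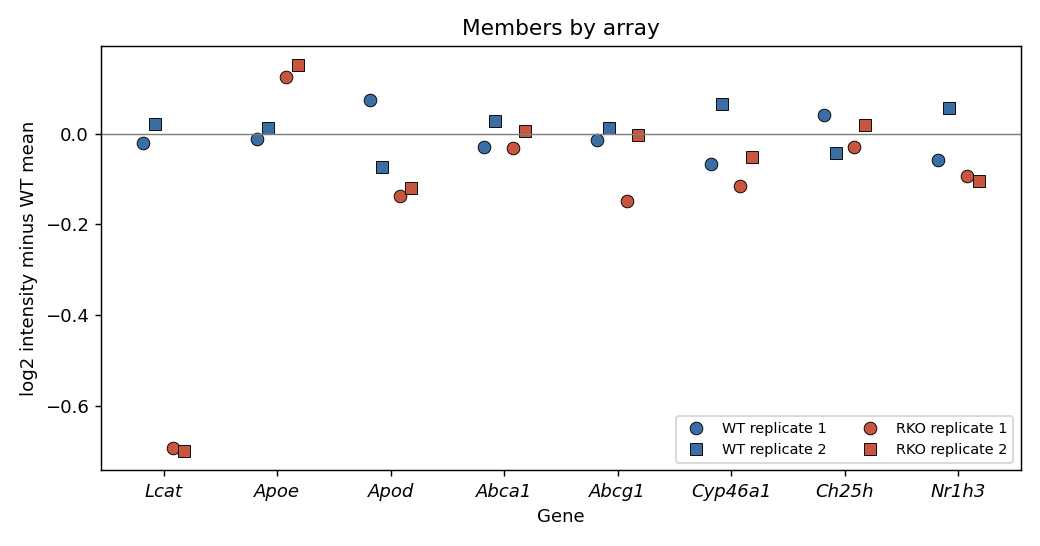
Log2 intensity of each of the 8 members on each array, less the mean of the 2 WT arrays of that gene (vertical axis, log2 units; blue WT, red RKO, circles replicate 1, squares replicate 2). Both RKO points of Lcat lie about 0.70 below WT, while the RKO points of the other members lie close to their WT points.

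Apoe encodes the main lipoprotein carrier of the brain, made chiefly by astrocytes and by microglia. WT arrays read 6457 and 6564 for it, and RKO arrays 7101 and 7230.25. Both RKO arrays were higher than both WT arrays, but the difference of 0.14 (SE 0.0550, 95% interval 0.02 to 0.26) did not pass over all genes (adjusted p = 0.314). Apod encodes a lipocalin that binds small lipids and sits on lipoprotein particles, and it is made by oligodendrocytes and fibroblasts. WT arrays read 9784 and 8827 for it, and RKO arrays 8448 and 8557. The RKO arrays were both below WT, yet the gap between the WT arrays (0.15) exceeded the difference between the groups (-0.13, SE 0.0633, 95% interval -0.27 to 0.01, adjusted p = 0.446). With an intensity trend in the variance prior, limma called both genes, Apoe at an adjusted p = 0.00401 and Apod at an adjusted p = 0.0121.

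The transporters did not pass. ABCA1 hands cholesterol and phospholipid to lipid-poor apolipoproteins, and Abca1 stood at 797 and 829.6 in WT, against 796 and 817 in RKO. The groups overlapped, and the interval of the difference ran from -0.14 to 0.11 (estimate -0.01, SE 0.0565, adjusted p = 0.965), or from -9.06% to 8.09% of the WT level. ABCG1 passes cholesterol to particles that already carry lipid. Abcg1 stood at 1401 and 1427 in WT, against 1275 and 1410.35 in RKO, so the lower RKO mean came mostly from RKO replicate 1. Its difference was -0.08 (SE 0.0631, 95% interval -0.22 to 0.06, adjusted p = 0.712), and without RKO replicate 1 it was -0.0034.

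Of the sterol hydroxylases, CYP46A1 makes 24-hydroxycholesterol in neurons, the main form in which cholesterol leaves the brain. Cyp46a1 read 1562 and 1713 in WT and 1509.8 and 1578 in RKO, with overlapping groups and a difference of -0.08 (SE 0.0631, 95% interval -0.22 to 0.06, adjusted p = 0.664). A list of 12 pan-neuronal markers summed to 54959 and 54597 in WT and 54655 and 55403 in RKO. CH25H makes 25-hydroxycholesterol, in macrophages above all. Ch25h was dim on all arrays, at 82.7 and 78.0 in WT and 78.7 and 81.4 in RKO, and its difference in a fit without the filter was -0.0049 (SE 0.0633, adjusted p = 0.988). At intensities this far under the filter a change in Ch25h could be missed.

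Nr1h3 encodes LXRα, the oxysterol receptor that partners with RXR. It read 196 and 212 in WT and 191 and 189.9 in RKO, just above the filter. Both RKO arrays were lower, and the difference of -0.10 (SE 0.0599, 95% interval -0.23 to 0.03) did not pass (adjusted p = 0.555).

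**Figure D2:**
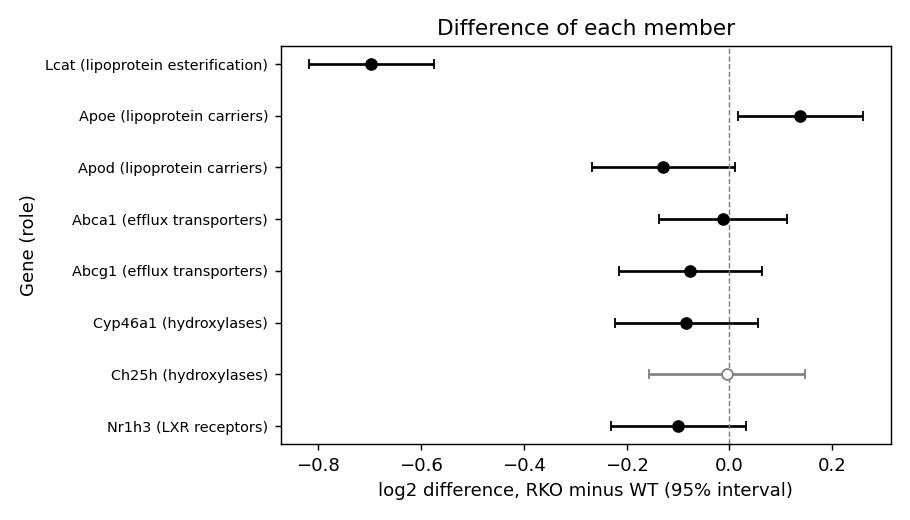
Difference between RKO and WT in log2 units (horizontal axis) for the 8 members, labelled with their roles, with 95% intervals from limma for each gene on its own. The interval of Lcat (-0.82 to -0.58) lies apart from all others, and the open grey point is Ch25h, below the filter.

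Of the 7 members tested, then, 1 was lower, 0 were higher and 6 did not pass, beside 1.6% of all tested genes called. The fall of Lcat was known when the list was made, so nothing is read from this share. The groups did not overlap for 4 of the 7 (Lcat, Apoe, Apod and Nr1h3), against 41.8% of all tested genes. The other 6 members ran from -0.13 to 0.14 with a median of -0.08, and the median of all tested genes was -0.01. At an unadjusted p under 0.05 in limma there were 2 members, Lcat and Apoe (28.6%, against 12.8% of all tested genes). Without Lcat it was 1 of 6 (16.7%). For any single gene, 2 arrays against 2 allow no exact permutation p below 0.333. Whether Lcat differed from the other members was not tested.

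The sequences before the start sites of 3 members are given so that the receptor motifs in them can be read: Lcat, the member that fell, Apoe, the member with the highest difference, and Abca1, a textbook LXR target that did not pass. They are the 250 bases before the start site in RefSeq (GRCm38.p6), all on the minus strand, at chr8:105943403-105943652 for Lcat, chr7:19699189-19699438 for the first of 3 Apoe starts and chr4:53159896-53160145 for Abca1. Capitals mark matches, on either strand, to the receptor core AGGTCA or GGGTCA, to the ROR element that REV-ERBα binds, to the LXR element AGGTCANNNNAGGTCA with up to 3 mismatches, to the E-box CACGTG or to the GC box GGGCGG.
Lcat: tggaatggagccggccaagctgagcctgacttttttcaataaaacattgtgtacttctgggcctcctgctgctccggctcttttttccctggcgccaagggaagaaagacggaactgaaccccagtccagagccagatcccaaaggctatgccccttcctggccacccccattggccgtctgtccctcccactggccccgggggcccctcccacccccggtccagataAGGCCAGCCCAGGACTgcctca
Apoe: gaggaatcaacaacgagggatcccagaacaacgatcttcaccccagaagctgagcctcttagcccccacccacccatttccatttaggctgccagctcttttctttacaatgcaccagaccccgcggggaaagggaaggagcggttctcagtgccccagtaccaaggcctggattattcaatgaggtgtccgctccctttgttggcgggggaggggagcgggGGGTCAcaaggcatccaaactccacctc
Abca1: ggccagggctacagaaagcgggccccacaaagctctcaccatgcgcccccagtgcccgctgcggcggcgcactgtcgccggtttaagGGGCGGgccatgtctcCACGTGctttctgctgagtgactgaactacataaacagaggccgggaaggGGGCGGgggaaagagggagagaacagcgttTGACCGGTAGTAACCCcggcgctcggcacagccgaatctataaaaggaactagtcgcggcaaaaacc

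In the Lcat window the sole match was an imperfect LXR element at -22 to -7, and neither core nor a ROR element was found. The Apoe window shown held GGGTCA at -28 to -23, and the windows of the other Apoe starts held no match to any of these motifs. The Abca1 window held an imperfect LXR element on the opposite strand at -67 to -52, an E-box at -147 to -142 and 2 GC boxes, with no overlap among them. The LXR element was first searched with 0 and then 2 mismatches, which found it in 0 of the 9 members that have a window. Those 9 include Soat1 and Nr1h2, while Abcg1 had no window and was not searched. The tolerance was then raised to 3 because that takes in the element of Abca1, so the matches in Lcat and Abca1 depend on a choice made after the sequences were seen. With 2 mismatches it was present in 2.57% of promoters. With 3 it was found in 3 of these 9, Cyp46a1 being the other one. Over the 250-base windows of 32544 promoters, such an imperfect LXR element was present in 18.5%, AGGTCA in 14%, GGGTCA in 11.7%, a ROR element in 0.332%, the E-box in 6.03% and the GC box in 33%. These matches describe letters in the window and show no binding.

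Cholesterol handling beyond the members was read from 6 further lists of 79 genes, of which 73 had a probe set and 55 lay above the filter. In limma 0 of the 55 passed, 5 had an unadjusted p under 0.05 (9.09%, against 12.8% of all tested genes), and their median difference was -0.03. Those 5 were Abca8a, Apoc4, Cav1, Cyp7b1 and Rxrg. Cyp7b1 was called with an intensity trend or a stricter filter, and Apoc4 without WT replicate 2. In settings added after seeing the data, Apoc4, Cyp7b1 and Rxrg were called under median centring over all probe sets, and these 3 and Abca8a with the crossed replicate block.

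Of all 13587 tested genes 7715 lay below 0 and 5872 above. Among 10 tested genes for other efflux transporters and the HDL receptor, 9 lay below 0 and 0 passed. They ran from -0.22 in Abca8a (adjusted p = 0.236) to 0.04 in Abcg2, an exporter of drugs and sterols at the blood-brain barrier. Whether relatives of Abca8a share its probes' signal was not tested. Among 8 apolipoproteins and lipoprotein enzymes 7 lay above 0 and 0 passed. Apoc4, a minor apolipoprotein encoded beside Apoe, stood highest at 0.28 (adjusted p = 0.183), with intensities of 195 and 226 in WT and 278 and 235 in RKO, and Apoa2 lowest at -0.00032. The groups did not overlap for 3 of the 8 (37.5%, against 41.8% of all tested genes). These were Apoc4, the abundant astrocyte carrier Clu (0.08) and the phospholipid transfer protein gene Pltp (0.11), which did not pass. Of 7 lipoprotein receptors and their regulators 0 passed, from -0.09 in Lrpap1, the chaperone of the LRP family, to 0.11 in Lrp8, the apolipoprotein E receptor 2 of neurons.

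Inside the cell, 16 genes of cholesterol transport and ester hydrolysis were tested and 0 passed. They ran from -0.185 in Cav1, the caveolin of endothelium (adjusted p = 0.193), to 0.11 in Stard3, a sterol carrier of late endosomes, with Npc1, the lysosomal exporter, at -0.02. Of 6 other oxysterol enzymes 0 passed. Cyp7b1, which hydroxylates oxysterols further, was lowest at -0.26 (SE 0.0750, adjusted p = 0.148), with 579 and 574 in WT and 444 and 524 in RKO, and Amacr highest at 0.06. Of 8 genes of RXR partners and sterol sensing 0 passed, from -0.24 in Rxrg, a partner of LXR (adjusted p = 0.0998), to 0.04 in Rxra. Srebf2 (-0.07), Scap (-0.03) and Insig1 (-0.07), from the same list, had overlapping groups.

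LXR target genes, members included, were not called. Lpl, Abcg5 and Abcg8 lay below the filter, and Arl4c and Apoc2 were not analysed here. Of 11 tested, 3 lay above 0, 8 below and 0 passed in limma, with a median of -0.03. At an unadjusted p under 0.05 there were 2 (18.2%, against 12.8% of all tested genes), Scd1 below 0 and Apoe above. The range ran from -0.24 in Scd1, a fatty acid desaturase (intensities 6248 and 5853 in WT, 5105 and 5108 in RKO, adjusted p = 0.0735), to 0.14 in Apoe. Srebf1, the LXR-driven regulator of fatty acid synthesis (-0.03), Mylip, which degrades the LDL receptor (-0.05), and Lpcat3, a phospholipid-remodelling enzyme (-0.0066), had overlapping groups.

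**Figure D3:**
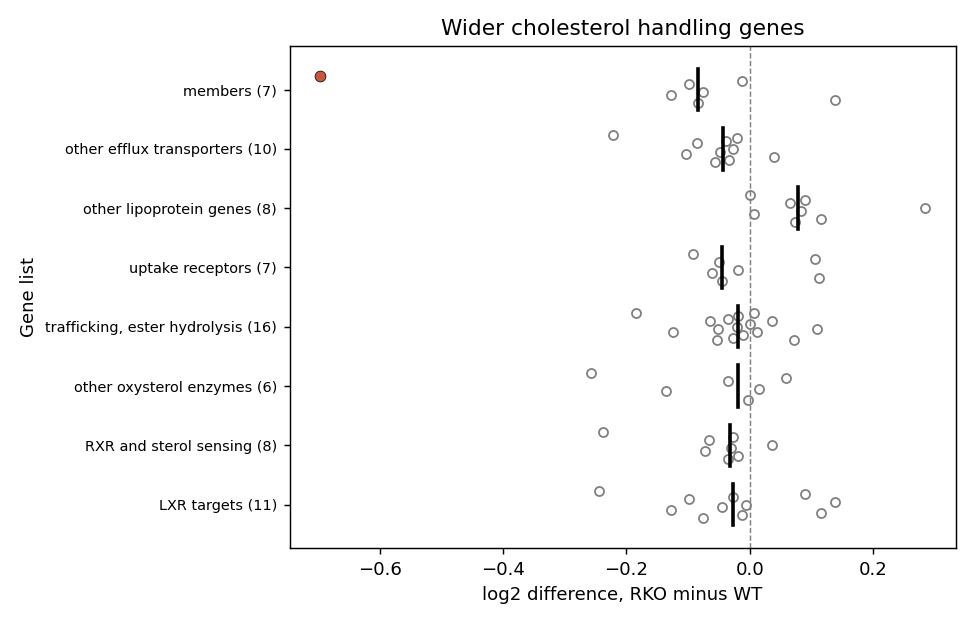
Difference between RKO and WT in log2 units for each tested gene (1 point) of the members and of 7 lists of cholesterol genes, with the number of genes in brackets and the list median as a vertical bar. The filled point is the called gene, Lcat, and all open points lie between -0.26 and 0.28.

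The cells that make these proteins were followed by marker lists. Calls in the lists stand beside 1.6% of all tested genes called, and 0.964% called lower in RKO. In bulk tissue fewer cells of a type and less RNA per cell cannot be told apart, by these lists either. Astrocyte markers, which bear on Lcat and Apoe, summed to 34133 and 33857 in WT and 34013.5 and 34479 in RKO. Of the 12, 6 lay above 0 and 6 below, all were above the filter, and 2 fell: Gfap, an intermediate filament (-0.51), and Aldh1l1, a folate enzyme (-0.31). The groups did not overlap for 12 of the 12, against 41.8% of all tested genes. In limma 6 of the 12 had an unadjusted p under 0.05 (50%, against 12.8% of all tested genes). Beside the 2 that fell, these were Gjb6 (-0.18) and Aqp4 (-0.13) below 0 and Gja1 (0.22) and Sox9 (0.15) above. With no filter Gfap was not called (adjusted p = 0.0580 in limma). Aldh1l1 was not called with no filter, under median centring, after quantile normalization, or without WT replicate 1 or RKO replicate 1 (adjusted p = 0.0717 to 0.339). The core astrocyte glutamate transporters Slc1a2 (0.05) and Slc1a3 (-0.06) did not pass. Oligodendrocyte markers, which bear on Apod, all lay below 0 (11 of 11, median -0.09), as did 7715 of all 13587 tested genes. They summed to 44224 and 43229 in WT and 40727 and 41020.1 in RKO, with a fall called in the myelin gene Opalin (-0.30). Opalin was not called with no filter, under median centring, after quantile normalization, or without WT replicate 1 or either RKO array (adjusted p = 0.0828 to 0.330 in limma). The part of the oligodendrocyte markers in the difference of Apod was not tested.

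Many leptomeningeal fibroblast markers fell beside Lcat. Of 13 tested, 8 fell, 0 rose and 5 did not pass, with a median of -0.32, while 0.964% of all tested genes were called lower. Of the 8 falls, 3 were still called with no filter (Ogn, Islr and Slc13a4), 5 under median centring, 5 without either RKO array and 6 without WT replicate 2. With the 60th percentile filter 4 of the 8 could be tested, and all 4 were called. The 15 measured markers summed to 6566 and 6696 in WT and 5283 and 5303 in RKO. The falls ran from -1.11 in Ogn, a matrix proteoglycan, to -0.28 in the organic anion transporter Slc22a6, and took in Islr (-0.76), Slc13a4 (-0.66), Aldh1a2 (-0.50), Slc6a13 (-0.49), Dcn (-0.41) and Foxc1 (-0.32). Lum and Foxd1 lay below the filter, and the collagens Col1a1 (0.13), Col1a2 (0.07) and Col3a1 (0.08) lay above 0. The falls of Ogn, Islr and Slc13a4 were known when the list was made, so its count is not independent evidence of a direction. Their part in the fall of Lcat was not tested. Of the remaining lists, microglia (10 tested, median -0.07), endothelium and pericytes (11 tested, -0.09) and pan-neuronal markers (12 tested, 0.0027) had 0 genes called by limma. At an unadjusted p under 0.05 they had 2, 4 and 0 genes (20%, 36.4% and 0%, against 12.8% of all tested genes). The same count was 2 of 11 oligodendrocyte, 10 of 13 leptomeningeal, 7 of 10 dopamine neuron and 2 of 8 choroid plexus markers. Of 10 dopamine neuron markers 4 rose (Th, Slc6a3, Slc18a2 and Ddc), beside 1.6% of all tested genes called in either direction. Of these 4, Th alone was still called when no filter was set, and likewise when RKO replicate 2 was left out. Slc6a3 also lost its call without WT replicate 1, and Slc6a3 and Ddc without RKO replicate 1. Of 8 choroid plexus markers Kcnj13, a potassium channel, fell (-0.37), while the main choroid transcript Ttr stood at 0.12 and did not pass. Kcnj13 was not called with no filter, under median centring, after quantile normalization, or without WT replicate 2 or either RKO array (adjusted p = 0.0521 to 0.206 in limma).

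**Figure D4:**
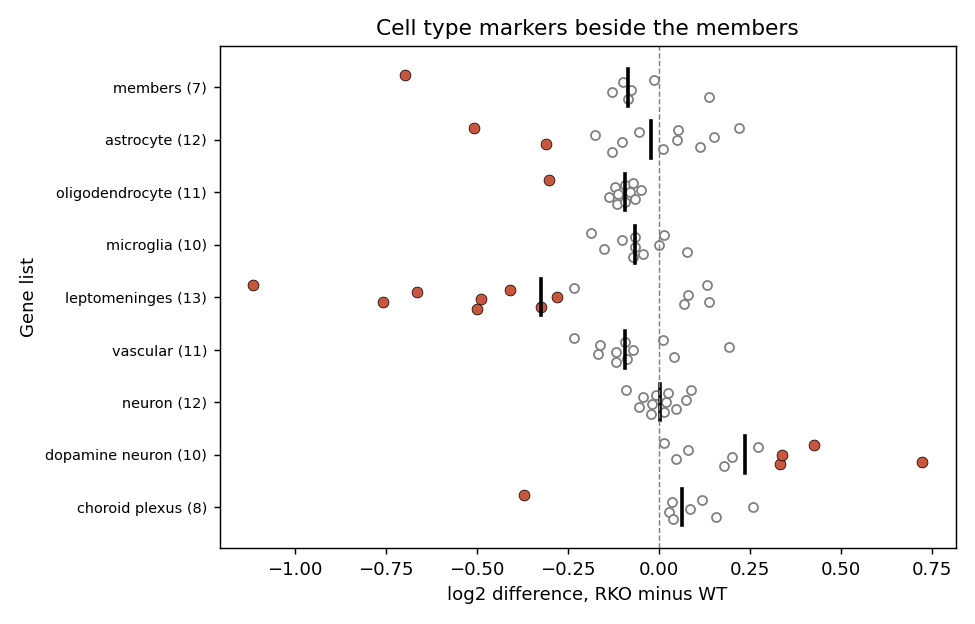
Difference between RKO and WT in log2 units for each tested gene (1 point) of the members and of 8 marker lists, with the number of genes in brackets. Filled points passed an adjusted p under 0.05 and the vertical bar is the list median, which is lowest in the leptomeningeal list (-0.32).

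The genes most like Lcat across the 4 arrays were found by the Euclidean distance between log2 values after each gene's own mean was subtracted, over the 13587 tested genes. The nearest were Itih2 (distance 0.0628), Plxdc1 (0.0631), Islr (0.0937), Ramp3 (0.0952) and Ccn3 (0.105). Itih2, which encodes a carrier of hyaluronan chains, read 276 and 293 in WT and 168 and 174 in RKO. Islr is on the leptomeningeal list, and the other 4 are on none of the lists used here. The distance rests on 4 arrays, and the likeness is given as a description.

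**Figure D5:**
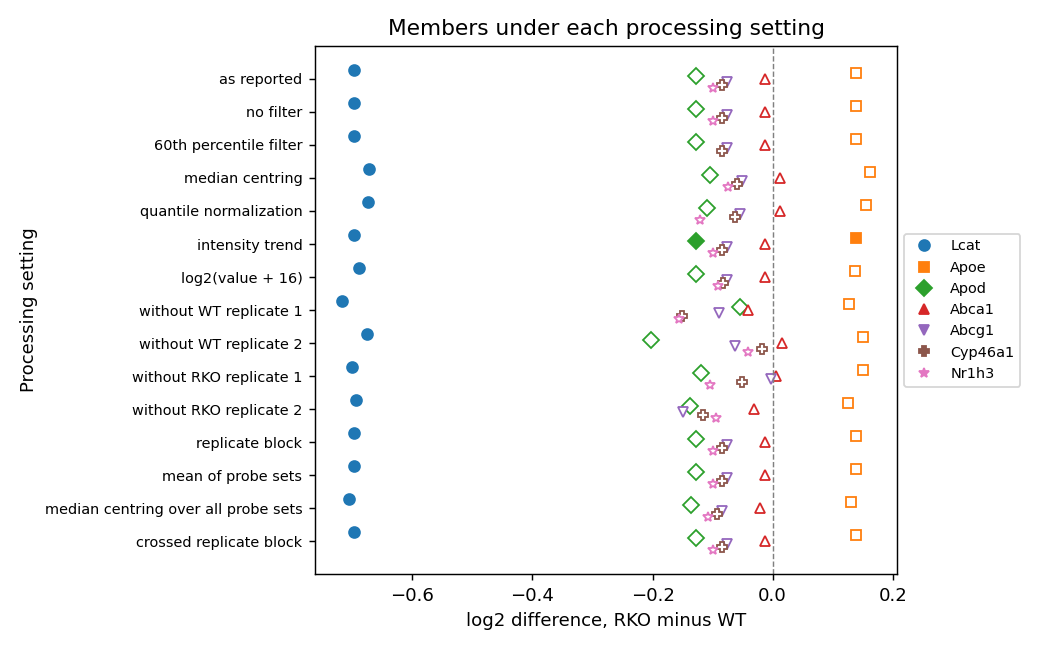
Difference between RKO and WT in log2 units for the 7 members above the filter (colours and shapes) under each processing setting (rows), filled where the adjusted p was under 0.05. Lcat lies between -0.72 and -0.67 and is filled in every row, and Apoe and Apod are filled with an intensity trend alone.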

How the data were processed

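Per the submitters' processing notes, GCOS and RMA were used, with no settings given. The deposited values hold, for each array, a normalized intensity for each of 35556 Affymetrix probe sets, linear as judged from the values. Per the labels, cRNA was made from 1 µg of total RNA. RMA as usually run removes shifts common to most genes. Here log2 was taken of the deposited intensities. Platform annotation gave 1 symbol to 21789 probe sets, several to 1621 and none used here to 12146. The brightest probe set stood for each gene, genes under the 40th percentile were left out (log2 7.38), and RKO was compared with WT across all genes with limma 3.58.1 (lmFit, eBayes; R 4.3.3), two-sided, with no covariate (2 residual and 8.73 prior degrees of freedom) and a Benjamini-Hochberg adjusted p under 0.05. The fit was tested on simulated data. At most 5 values were identical between any 2 arrays. The number of arrays limits the precision. The members and lists were chosen with earlier results of these data known. Named were all members, each wider list's called, lowest and highest genes, called markers, and the 5 genes nearest to Lcat. Some others (Clu, Pltp, Npc1, Srebf1, Srebf2, Scap, Insig1, Mylip, Lpcat3, Slc1a2, Slc1a3, Ttr and the collagens) were named after their values were seen. So were Gjb6, Aqp4, Gja1 and Sox9. Alternatives covered the filter, scaling, variance prior, pseudocount, arrays, replicate block and probe set choice.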

Additional observations from a re-analysis of the deposited data

How the results depend on the processing

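The fall of Lcat kept its direction and its call in all 14 alternatives (-0.72 to -0.67, adjusted p up to 0.0121 in limma), those added after seeing the data included. Another filter, variance prior or replicate block leaves a member's difference as reported. So does another probe set choice, as each measured member has 1 probe set. In those settings only the call could change. Abcg1, Cyp46a1 and Nr1h3 stayed below 0 without a call wherever tested, and Ch25h could be tested only without the filter. Abca1 turned above 0 under median centring (0.0123) and quantile normalization (0.0128), and ran from -0.0412 to 0.0163 when arrays were left out, uncalled throughout. The intensity trend raised the count of members called from 1 to 3, adding Apoe (0.14) and Apod (-0.13). Without 1 array the called members stayed at 1, in fits where the lone array is assumed to vary like the other group. The wider genes called were 0 as reported, 1 with the 60th percentile filter and 1 with the trend (Cyp7b1 in both), and 0 to 1 with an array left out (Apoc4 without WT replicate 2). All genes called numbered 218 as reported, 31 with no filter, 106 under median centring over tested genes and 499 with the trend. With an array left out they ran from 73 (without RKO replicate 1) to 293 (without WT replicate 2), with 99 without RKO replicate 2. Median centring over all probe sets, chosen after seeing the data, gave 455 genes and 3 wider ones. The causes of these shifts were not tested. The replicate block gave 259 genes and changed no member's call. Arrays share only a number, and their deviations correlated at -0.114 between WT replicate 1 and RKO replicate 1. The crossed replicate block, added for that reason, called 696 genes, 1 member and 4 wider genes.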

Other observations

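Genes beside Lcat on chromosome 8, in RefSeq order, were not called, in the 6 places nearest to it. Psmb10, an immunoproteasome subunit, read 779 and 837 in WT and 739 and 772 in RKO (-0.10, adjusted p = 0.573 in limma). Slc12a4, a potassium-chloride cotransporter, read 393 and 393 in WT and 375 and 399 in RKO (-0.02, adjusted p = 0.929). The next tested genes on the Psmb10 side, Ctrl (0.15, adjusted p = 0.294) and the kinase gene Pskh1 (0.05, adjusted p = 0.790), did not pass either, and Dpep3 and Dpep2 on the other side lay below the filter. None of these 6 overlaps Lcat.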
